A study of Homo sapiens with 4 samples.

Results

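The clustered protocadherins are cell surface adhesion proteins encoded by tandem genes on chromosome 5. They were taken from the count table by symbol, as PCDHA, PCDHB or PCDHG followed by a number, a letter and number, or a C-type code, with pseudogenes left out. This gave 53 of the 60612 genes in the table, of which 15 were alpha, 16 beta and 22 gamma genes. All of them lie on the plus strand of chr5:140786136-141512981 (hg38, GENCODE 29), a stretch of 727 kb. The libraries were polyA RNAseq of IMR-32, an established MYCN-amplified neuroblastoma line. Cells stably transduced with a scrambled shRNA (shControl) or with an shRNA against NeuroD1 (shNeuroD1), a neurogenic bHLH transcription factor, were sequenced as 2 libraries each. RNA interference was induced with doxycycline at 1 µg/mL for 48 h, and the control cells carry the same treatment. Both shNeuroD1 libraries carried the same hairpin according to the column names of the study's own comparison, so an effect of NeuroD1 loss and an effect of that hairpin cannot be told apart. The labels do not say whether the replicates were separate cultures, so the p-values measure only the spread between these libraries.

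In vertebrate neurons each clustered protocadherin is read from its own promoter and its own large exon, which encodes the extracellular cadherin repeats and the membrane span. In the alpha and gamma clusters this exon is spliced to 3 exons common to the whole cluster, which encode the shared part of the cytoplasmic tail, whereas each beta gene is a single coding exon. Single neurons use different combinations of these promoters, and the proteins bind like proteins on neighbouring cells, which underlies the self-avoidance of neurites. Promoter use is known to depend on a conserved promoter element, on CTCF and cohesin, and on DNA methylation. The C-type genes at the end of the alpha and gamma clusters are known to be regulated differently from the rest.

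Total counts per library were 14665210 to 16482463, and the clustered protocadherins took 1955 and 2212 of them in shControl and 2002 and 1989 in shNeuroD1. NEUROD1 itself had 6174 and 6582 counts under shControl and 969 and 886 under shNeuroD1 (log2 fold change -2.77, SE 0.05, adjusted p = 8.59e-29). The neuroblastoma genes MYCN, PHOX2A, HAND2, GATA3, ISL1 and CHGA were expressed in all libraries, while TH and DBH, enzymes of catecholamine synthesis, had at most 88 and 24 counts. TH rose by 2.48 on the log2 scale (adjusted p = 8.34e-09). DBH had a log2 fold change of -1.01 (adjusted p = 0.0342), a call that was lost whichever library was left out, at library size alone (adjusted p = 0.0596) and in DESeq2's Wald test (adjusted p = 0.280). Markers of other cell types moved with the condition: of 10 listed, 7 could be tested, 5 rose and 1 fell. Over all tested genes 26.8% rose and 28.2% fell. EPCAM went from 0 and 1 counts to 28 and 21, while PTPRC and PECAM1 stayed at 4 counts or fewer. The summed level of the 10 markers was 41.0 and 42.8 CPM (counts scaled to each library's TMM-adjusted size) in shControl and 32.6 and 32.4 in shNeuroD1, and without COL1A1 it was 6.24 and 5.54 against 13.5 and 14.1. Their part in the results that follow was not tested.

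A RefSeq promoter sequence (GRCh38.p14, 250 bases before to 50 after the start) was given for 47 of the 53 genes. The letters CGCT, the core of the conserved element of these promoters, were present on either strand in 46 of the 47 (97.9%), against 71.9% of 27305 genes. These letters alone do not show that the element is present. On the gene's own strand, between 100 and 30 bases before the start, CGCT was found in 43 (91.5%), against 25.3% of genes. That stretch was chosen after the positions had been seen, and PCDHA9, PCDHB5, PCDHB8 and PCDHGB2 lacked the letters within it. Windows of 40 bases around CGCT (in capitals) are shown for some members of each cluster that fell, rose or did not pass the test. They were placed by these letters alone and were not aligned by the element. The beta genes PCDHB3, PCDHB9 and PCDHB10 fell, PCDHB15 rose and PCDHB14 did not pass the test.
PCDHB3: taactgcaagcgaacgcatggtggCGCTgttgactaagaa
PCDHB9: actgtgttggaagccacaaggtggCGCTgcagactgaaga
PCDHB10: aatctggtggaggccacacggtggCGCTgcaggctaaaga
PCDHB14: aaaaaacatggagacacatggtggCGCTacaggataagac
PCDHB15: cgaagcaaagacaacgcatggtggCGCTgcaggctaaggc
The alpha genes PCDHA2, PCDHA8 and PCDHAC2 rose, and PCDHAC1 fell. The letters around CGCT in PCDHAC2 are unlike those in PCDHA2 and PCDHA8.
PCDHA2: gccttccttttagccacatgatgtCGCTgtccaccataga
PCDHA8: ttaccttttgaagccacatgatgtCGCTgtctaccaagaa
PCDHAC1: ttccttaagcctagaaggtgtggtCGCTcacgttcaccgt
PCDHAC2: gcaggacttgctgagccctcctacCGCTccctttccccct
The gamma genes PCDHGA10 and PCDHGB7 fell, and PCDHGA9 did not pass the test. The letters around CGCT in PCDHGB7 are unlike those in PCDHGA9 and PCDHGA10, so its capitals may not mark the same site.
PCDHGA9: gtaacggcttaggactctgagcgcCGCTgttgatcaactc
PCDHGA10: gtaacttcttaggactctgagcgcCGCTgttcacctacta
PCDHGB7: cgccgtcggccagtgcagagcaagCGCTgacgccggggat
These windows lie on the plus strand at chr5:141100385-141100424, chr5:141187066-141187105, chr5:141192291-141192330, chr5:141223255-141223294 and chr5:141245306-141245345 for the beta genes, at chr5:140794773-140794812, chr5:140841122-140841161, chr5:140926212-140926251 and chr5:140966411-140966450 for the alpha genes, and at chr5:141402706-141402745, chr5:141412923-141412962 and chr5:141417599-141417638 for the gamma genes. Of 8-base words, 3 that overlap one another were the most widely shared, in 13 member promoters each. GTGGCGCT (reverse complement AGCGCCAC) and GGTGGCGC (GCGCCACC) stood in 13 beta promoters and in no alpha or gamma promoter, against 378 and 748 of the 27305 genes. TGGCGCTG (CAGCGCCA) stood in 12 beta promoters and in that of PCDHGB4, against 633 genes. GTGGCGCT contains the CGCT letters and was in 13 of the 14 beta promoters given, PCDHB1 being the exception, in genes that fell, rose or did not pass the test alike.

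The E-box letters CAGATG and CAGCTG, which bHLH factors of the NeuroD family are known to bind, were sought on both strands. CAGATG was present in 7 member promoters (14.9%, against 17.5% of genes) and CAGCTG in 6 (12.8%, against 21.1%). Among the members that passed the test, CAGATG stood in the promoters of PCDHA8, PCDHB16, PCDHB9 and PCDHB10, which are shown on the gene's strand with the letters in capitals.
PCDHA8: tttctctgacagCATCTGtctctaaaggcc
PCDHB16: atcacagagctcCATCTGtatacacgaaag
PCDHB9: gaaacactgagaCAGATGggctgagaagaa
PCDHB10: ggaagacacggaCAGATGaacttaa
PCDHA8 rose and the other 3 fell. These stretches lie at chr5:140841189-140841218, chr5:141182182-141182211, chr5:141187156-141187185 and chr5:141192378-141192402 on the plus strand (GRCh38.p14). No binding was measured in these libraries.

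In the shNeuroD1 libraries the clustered protocadherins did not move as 1 block. Those that fell were PCDHAC1, PCDHB3, PCDHB4, PCDHB16, PCDHB9, PCDHB10, PCDHGA10 and PCDHGB7, and those that rose were PCDHA2, PCDHA3, PCDHA8, PCDHAC2 and PCDHB15. The falls were in the beta and gamma clusters apart from PCDHAC1, and the rises in the alpha cluster apart from PCDHB15.

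These calls were made at an adjusted p under 0.05 in the fit across all 17537 genes with enough counts. The filter on low counts kept 33 of the 53 members, 9 alpha, 11 beta and 13 gamma, and the other 20 had at most 13 counts in any library. Of the 33, 8 fell (24.2%, against 28.2% of all genes tested) and 5 rose (15.2%, against 26.8%). Beyond a log2 fold change of 1, 5 fell (15.2%, against 5.14% of all genes) and 2 rose (6.06%, against 8.79%). The tested members had a median of 29 counts per library, against 284 over all tested genes. The filter passed PCDHB4, PCDHGA8, PCDHGA10 and PCDHGA11 through the shControl libraries alone, and PCDHA2 and PCDHGA12 through the shNeuroD1 libraries alone. The 5 falls beyond 1 include PCDHB4 and PCDHGA10 and the 2 rises include PCDHA2, so these shares are a description and do not set the members apart. Without the filter 4 of 52 members were lower and 1 higher beyond 1. The median log2 fold change of the 33 was -0.09, against 0.01 over all tested genes, and its sign changed with the scaling and the filter. That median was -0.28 without shControl replicate 1 and -0.05 without shControl replicate 2. Fewer members passed when any library was left out, and so did fewer of all tested genes. PCDHAC1, PCDHAC2, PCDHB9, PCDHB10, PCDHGA10 and PCDHGB7 passed whichever library was left out. Those fits reused the genes that the filter had kept on all 4 libraries, so for PCDHGA10 this adds no support.

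**Figure D1:**
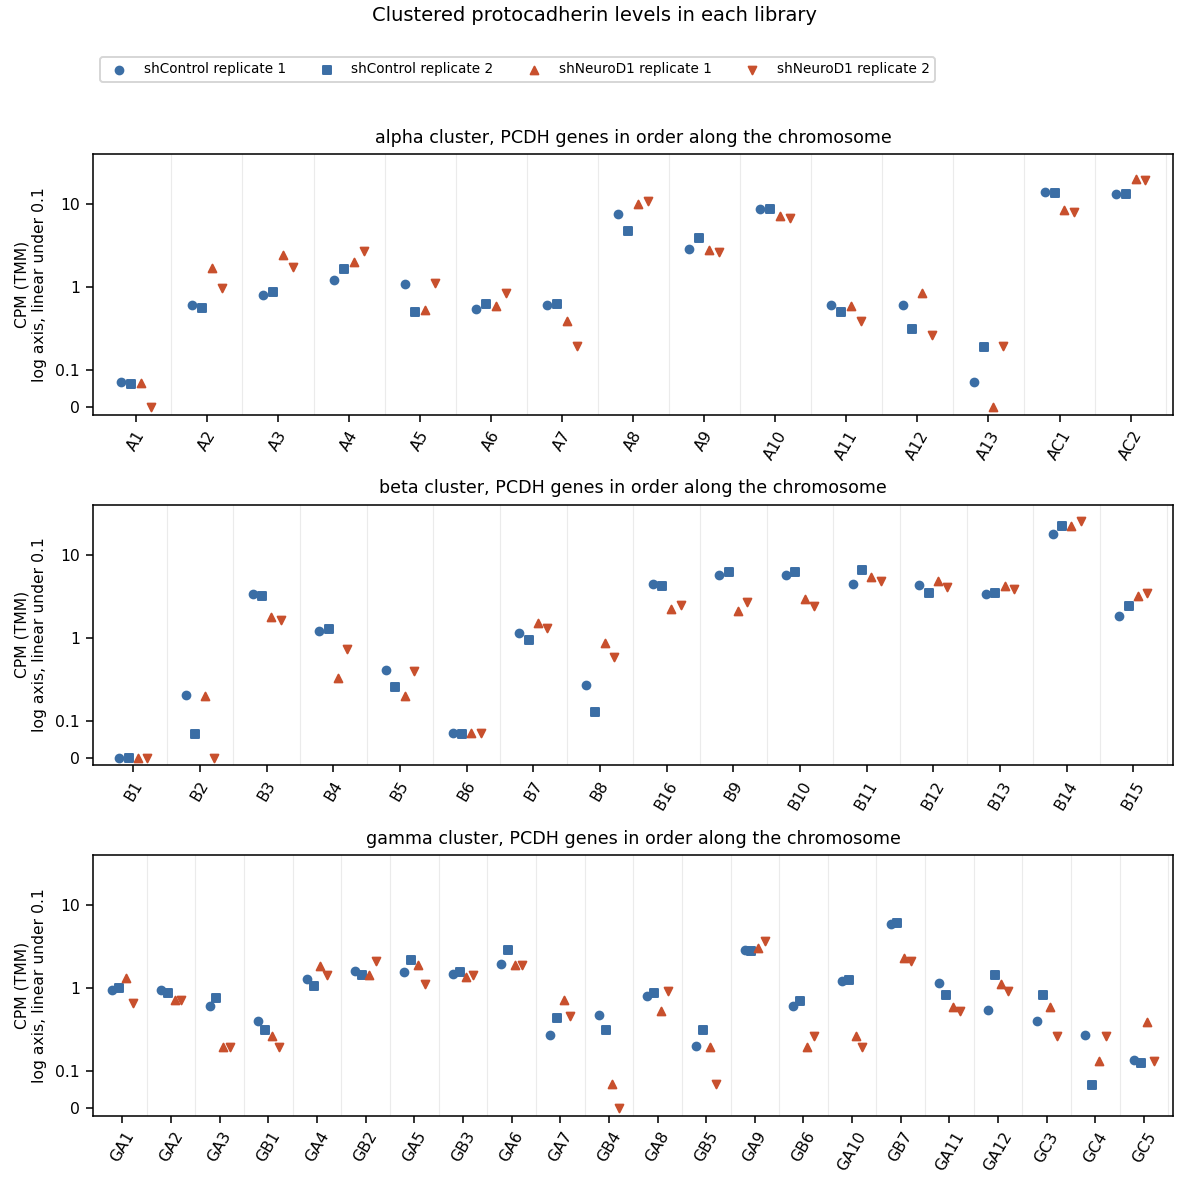
Level of each of the 53 clustered protocadherin genes in each library, as CPM on TMM-scaled library sizes, on a log axis that is linear under 0.1, with genes in their order along the chromosome. Circles and squares are the shControl libraries and triangles the shNeuroD1 libraries, and PCDHB1 sits at 0 in all 4.

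In the alpha cluster more genes rose than fell. Of 9 tested alpha genes 4 rose, 1 fell and 4 did not pass, where 26.8% of all tested genes rose and 28.2% fell. PCDHAC2, the most abundant alpha gene per length of its own exon bases, had 195 and 213 counts under shControl and 310 and 302 under shNeuroD1. All shNeuroD1 values lay above the control values, and the gene rose (log2 fold change 0.59, SE 0.11, adjusted p = 2.58e-05). PCDHAC1, the other C-type alpha gene, had 208 and 218 counts under shControl and 131 and 121 under shNeuroD1. It fell (log2 fold change -0.75, SE 0.13, adjusted p = 1.77e-05), so the neighbouring C-type genes moved in opposite directions. Per kilobase of own exon bases, PCDHAC1 went from 3.41 to 2.03 CPM and PCDHAC2 from 4.17 to 6.29. PCDHAC1 supplied 26.8% and 27.1% of the alpha counts in shControl and 14.8% and 14.0% in shNeuroD1. PCDHAC2 supplied 25.1% and 26.5% in shControl and 35.0% and 34.9% in shNeuroD1.

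PCDHA8 was the second alpha gene by level per length. It had 111 and 76 counts under shControl and 153 and 167 under shNeuroD1, and it rose (log2 fold change 0.78, SE 0.17, adjusted p = 0.000245). The control libraries stood well apart for this gene, and without shControl replicate 2 the log2 fold change was 0.48 with an adjusted p of 0.0723. Of the 50-base words of its first exon 28.0% also occur in another clustered protocadherin, most often PCDHA6, so some reads could be assigned to either gene. PCDHA2 had 9 and 9 counts under shControl and 26 and 15 under shNeuroD1 (log2 fold change 1.18, SE 0.46, adjusted p = 0.0279). PCDHA3, its neighbour, had 12 and 14 counts against 37 and 27 (log2 fold change 1.30, SE 0.38, adjusted p = 0.00404). The groups did not overlap for either gene, which adds no support, since both were picked by a test on the same counts. Each rise lost its call when shControl replicate 1, shControl replicate 2 or shNeuroD1 replicate 1 was left out. The log2 fold changes in those fits were 0.73 to 1.24 for PCDHA2 and 1.05 to 1.36 for PCDHA3. DESeq2's Wald test called neither (adjusted p = 0.269 and 0.105), and PCDHA2 also lost its call without the filter (adjusted p = 0.0850). PCDHA4, the next gene in order, had 18 and 26 counts against 31 and 42 and did not pass (log2 fold change 0.74, adjusted p = 0.0548). PCDHA9 and PCDHA10, further along, had log2 fold changes of -0.31 each and did not pass.

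The beta genes divided along the cluster. Of 11 tested beta genes 5 fell, 1 rose and 5 did not pass, where 28.2% of all tested genes fell and 26.8% rose. Every beta gene that fell lay at or before PCDHB10 in the order along the chromosome. PCDHB9 had 84 and 97 counts under shControl and 32 and 41 under shNeuroD1 (log2 fold change -1.30, SE 0.22, adjusted p = 8.36e-06). PCDHB10, which follows it, had 84 and 99 counts against 45 and 37 (log2 fold change -1.15, SE 0.21, adjusted p = 3.18e-05). PCDHB9 and PCDHB10 share sequence, with 21.0% and 35.4% of the 50-base words of their exons found in another member, most often each other. PCDHB16, which lies just before PCDHB9, had 65 and 66 counts against 34 and 38 (log2 fold change -0.85, SE 0.24, adjusted p = 0.00328). PCDHB3 had 49 and 50 counts against 27 and 25 (log2 fold change -0.92, SE 0.28, adjusted p = 0.00573). PCDHB4 had 18 and 20 counts against 5 and 11 (log2 fold change -1.23, SE 0.47, adjusted p = 0.0289). The groups did not overlap for any of these genes, which adds no support, since the genes were picked by a test on the same counts. Without shControl replicate 1 the calls of PCDHB3 (-0.88), PCDHB16 (-0.81) and PCDHB4 (-1.25) were lost, and that of PCDHB4 was also lost without shControl replicate 2 (-1.20) or shNeuroD1 replicate 1 (-0.78). DESeq2's Wald test did not call PCDHB3 (adjusted p = 0.124), PCDHB4 (adjusted p = 0.262) or PCDHB16 (adjusted p = 0.0916), and PCDHB4 also lost its call without the filter (adjusted p = 0.0807).

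PCDHB14 was the most abundant beta gene per length, at 4.31 CPM per kilobase in shControl and 5.12 in shNeuroD1. Its counts were 262 and 356 in shControl and 339 and 387 in shNeuroD1, so the groups overlapped in counts, and it did not pass (log2 fold change 0.24, SE 0.11, adjusted p = 0.0513). It passed at library size alone (0.35, adjusted p = 0.00511), with the filter at a mean of 1 CPM (0.26, adjusted p = 0.0333) and without shNeuroD1 replicate 1 (0.33, adjusted p = 0.0192). PCDHB11, the next gene after PCDHB10, had 66 and 103 counts against 83 and 74 and did not pass (log2 fold change -0.09, SE 0.20, adjusted p = 0.712). PCDHB12 and PCDHB13 each had a log2 fold change of 0.22 and did not pass. PCDHB15, the last beta gene, had 27 and 38 counts against 49 and 53 and rose (log2 fold change 0.66, SE 0.27, adjusted p = 0.0354), but its call was lost whichever library was left out, without the filter (adjusted p = 0.0759) and in DESeq2's Wald test (adjusted p = 0.304). PCDHB1 had no count in any library, which allows a level of up to 0.189 to 0.204 CPM by counting error alone. PCDHB7 and PCDHB8 lie among the genes that fell. PCDHB7 did not pass (log2 fold change 0.43), and PCDHB8, with 4 and 2 counts against 13 and 9, was not tested.

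Summed over the 11 beta genes from PCDHB1 to PCDHB10 in chromosomal order, PCDHB16 among them, counts were 331 and 355 in shControl and 186 and 188 in shNeuroD1, and the CPM in shNeuroD1 was 54.8% of control. Summed over the 5 genes from PCDHB11 to PCDHB15 they were 468 and 607 against 608 and 636, or 116.8% of control. On the log2 scale the second sum was 0.22 above control, 0.096 without shControl replicate 1 and 0.36 without shControl replicate 2. This division was made after the values had been seen and carries no test.

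**Figure D2:**
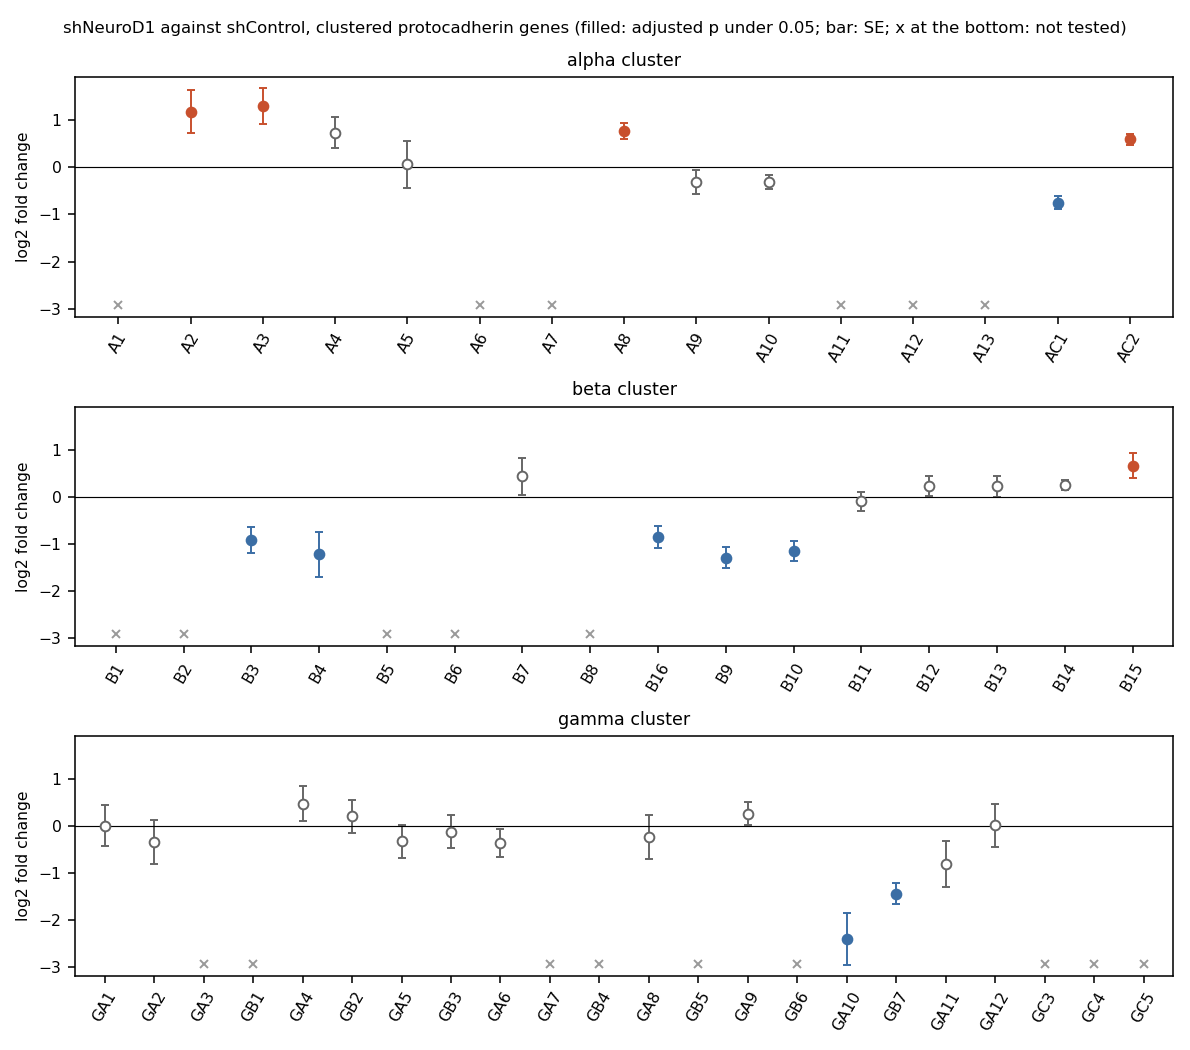
Log2 fold change of shNeuroD1 against shControl for the 33 tested members, with genes in their order along the chromosome and bars of 1 SE. Filled points passed at an adjusted p under 0.05, and crosses at the bottom mark the 20 members that were not tested. The filled beta points up to PCDHB10 are below 0, and the 2 filled gamma points lie side by side.

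In the gamma cluster 2 of 13 tested genes fell and none rose, where 28.2% of all tested genes fell and 26.8% rose. Counts of the tested members were low, at a median of 29 per library against 284 over all tested genes. The number of calls therefore does not set the gamma cluster apart. The median log2 fold change of its 13 tested genes was -0.23, against 0.01 over all tested genes. No gamma gene was higher at an unadjusted p under 0.05 either, in edgeR or in DESeq2. The other 11 did not pass, and 9 further gamma genes had too few counts to be tested. PCDHGB7, the most abundant gamma gene per length, had 87 and 96 counts under shControl and 35 and 32 under shNeuroD1 (log2 fold change -1.44, SE 0.22, adjusted p = 1.69e-06). PCDHGA10, which lies directly before it, had 18 and 20 counts against 4 and 3 (log2 fold change -2.39, SE 0.55, adjusted p = 0.000451). The filter kept PCDHGA10 through the shControl libraries alone, where it was high. Without the filter its adjusted p was 0.00600 in the same test. PCDHGB7 supplied 22.9% and 21.5% of the gamma counts in shControl and 10.9% and 10.7% in shNeuroD1. Per kilobase of own exon bases its level went from 2.15 to 0.790 CPM, while that of PCDHGA9, the second by level, was 1.11 and then 1.33. PCDHGA9 had 43 and 44 counts against 47 and 57 and did not pass (log2 fold change 0.26, SE 0.25, adjusted p = 0.377). PCDHGB2, the third by level per length, had 24 and 23 counts against 22 and 32 and did not pass (log2 fold change 0.21, SE 0.35, adjusted p = 0.641). The genes on either side of the pair that fell also had lower counts in every shNeuroD1 library: PCDHGB6, with 9 and 11 against 3 and 4, was not tested, and PCDHGA11 did not pass (log2 fold change -0.80, SE 0.48, adjusted p = 0.162). These neighbours were named after their values had been seen, and such counts were not particular to them. In CPM, both shNeuroD1 libraries lay below both shControl libraries for 11 of the 22 gamma genes and above them for 3. The share over all genes was not worked out.

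The C-type gamma genes were hardly detected. PCDHGC3 had 6 and 13 counts under shControl and 9 and 4 under shNeuroD1, PCDHGC4 had 4 and 1 against 2 and 4, and PCDHGC5 had 2 and 2 against 6 and 2. The groups overlapped for all 3, and none had enough counts to be tested. This differed from the alpha cluster, where both C-type genes were among the 3 most abundant.

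The cluster totals moved less than single members. The alpha sum was 51.6 ± 1.47 CPM in shControl and 57.6 ± 0.968 in shNeuroD1 (mean ± SD, n = 2 each), or 112% of control. The beta sum was 57.4 ± 4.51 against 53.2 ± 1.36, or 92.6% of control, and the gamma sum was 27.0 ± 1.67 against 20.4 ± 1.08, or 75.7%. The alpha and gamma groups did not overlap. Both beta libraries of shNeuroD1 lay below both of shControl, and the means differed by less than the SD of the controls. With 2 libraries a group, an exact permutation test cannot give a p below 0.333, and none was run. Each total leaned on its leading gene: leaving out PCDHAC2 the alpha sum was 97.8% of control, leaving out PCDHB14 the beta sum was 78.6%, and leaving out PCDHGB7 the gamma sum was 86.7%. Within the gamma cluster the 7 PCDHGB genes summed to 56.1% of control and the 12 PCDHGA genes to 88.0%. PCDHA1 to PCDHA13 together summed to 120% of control. These sums also leaned on single genes. PCDHGB7 supplied 87 and 96 of the 158 and 170 PCDHGB counts in shControl and 35 and 32 of 89 and 94 in shNeuroD1. PCDHA8 supplied 111 and 76 of the 373 and 372 counts of PCDHA1 to PCDHA13 in shControl. In shNeuroD1 it supplied 153 and 167 of 445 and 443. Scaled to library size alone, without TMM, the beta sum was 100.1% of control and the alpha and gamma sums 121% and 81.8%. That scaling moved the median of all genes from 0.01 to 0.12 on the log2 scale.

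**Figure D3:**
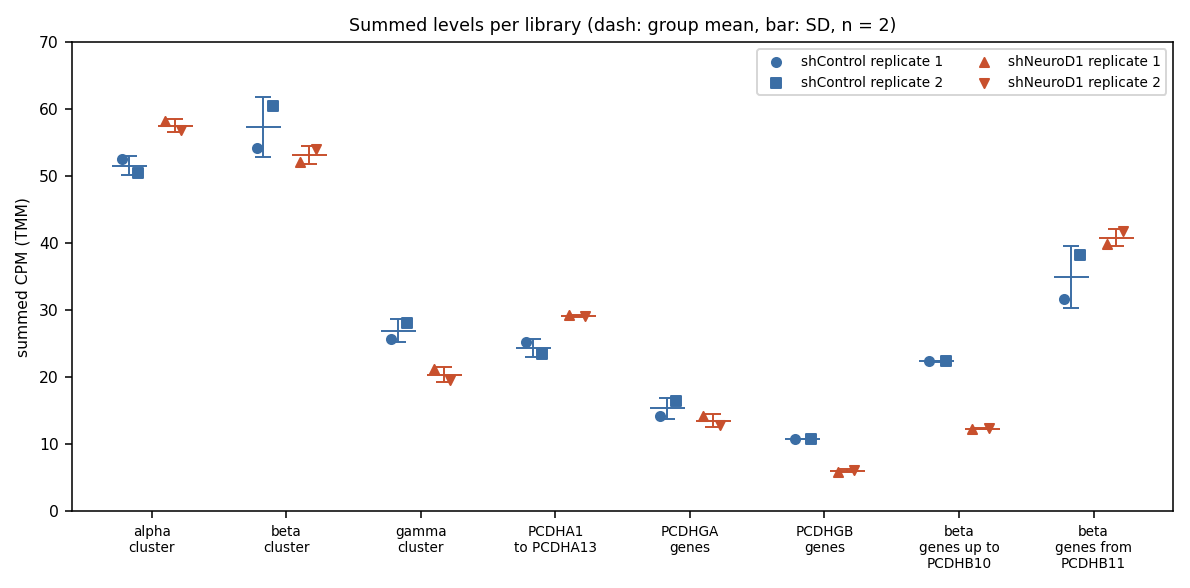
Summed CPM per library for the alpha, beta and gamma clusters, for subfamilies and for the beta genes up to PCDHB10 and from PCDHB11 on, with the group mean as a dash and the SD (n = 2) as a bar. The PCDHGB genes and the beta genes up to PCDHB10 show the widest gap between groups relative to the spread of their libraries. The beta division was made after the values had been seen, so its gap follows in part from the grouping. PCDHGB7 supplied 87 and 96 of the 158 and 170 PCDHGB counts in shControl.

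The 3 exons at the end of the alpha cluster, of 59, 89 and 2718 bases, belong to 14 or 15 alpha genes, and those of the gamma cluster, of 59, 89 and 2033 bases, to 21 or 22 gamma genes. How reads from them were counted is not given in the sources used here, and their share of a member's counts was not tested. The own exons of the members span 2011 to 10574 bases. The authors' per-library tables of assembled transcripts gave FPKM values at transcript starts and splice junctions, from the same reads. A start was listed for 15 members in any library and in all 4 for PCDHA8, PCDHAC2, PCDHGA9 and PCDHGB7. PCDHA8 starts had 1.66 and 0.490 FPKM in shControl and 4.03 and 3.49 in shNeuroD1. PCDHGB7 starts had 1.63 and 2.26 FPKM against 1.32 and 0.901, and the main PCDHAC2 start 1.09 and 3.66 against 3.47 and 2.72. A second PCDHAC2 start had 0.071 and 0.0014 FPKM against 0.321 and 0.081, and the test below used the sum of both. The PCDHA8 and PCDHGB7 groups did not overlap and those of PCDHAC2 did. In limma on log2(FPKM + 1) the difference was 1.26 for PCDHA8 (adjusted p = 0.12), -0.48 for PCDHGB7 (adjusted p = 0.279) and 0.43 for PCDHAC2 (adjusted p = 0.576), and none passed. The junction between the first and second common alpha exons, which sums over assembled alpha transcripts, had 4.12 and 3.67 FPKM in shControl and 6.49 and 6.22 in shNeuroD1. Apart from PCDHA8 and PCDHAC2, alpha genes had a listed start only for PCDHA10 in shControl replicate 1 (2.06 FPKM) and PCDHAC1 in shNeuroD1 replicate 1 (0.0496 FPKM). The junction draws on all these transcripts and is not a separate readout of the cluster. A transcript end between the starts of PCDHA8 and PCDHA9 had 0.693 and 0.480 FPKM in shControl. There it had 1.06 in shNeuroD1 replicate 1 and was not listed in shNeuroD1 replicate 2. It lies before the common exons, so PCDHA8 transcripts ending there do not reach the junction. PCDHAC1, which fell in counts, was thus not listed in either shControl library.

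Of 31 protein-coding neighbours within 500 kb of the clusters or between them 26 were tested, and 7 fell, 8 rose and 11 did not pass, where 28.2% of all tested genes fell and 26.8% rose. TAF7, a subunit of the general factor TFIID that lies between the beta and gamma clusters, had 4395 and 4393 counts against 3772 and 3718 and fell (log2 fold change -0.22, SE 0.04, adjusted p = 7.58e-05). SLC25A2, a mitochondrial ornithine carrier in the same gap, had 0 and 0 counts against 1 and 1. PCDH1, a non-clustered protocadherin downstream of the gamma cluster, went from 15 and 39 counts to 248 and 197 (log2 fold change 3.05, SE 0.22, adjusted p = 1.81e-13). Its change was the largest among the tested members and neighbours. PCDH12, still further downstream, had 22 and 27 against 25 and 29 and did not pass (log2 fold change 0.15, SE 0.34, adjusted p = 0.734). HBEGF, a growth factor upstream of the alpha cluster, had 27 and 18 against 36 and 44 and rose by 0.83 (SE 0.32, adjusted p = 0.0267). Its call was lost without shControl replicate 2 (0.52, adjusted p = 0.216), without shControl replicate 1 or shNeuroD1 replicate 2, without the filter (adjusted p = 0.0855) and in DESeq2's Wald test (adjusted p = 0.265). Of 11 non-clustered protocadherins 9 were tested, 1 rose (PCDH1), 2 fell and 6 did not pass, where 26.8% of all tested genes rose and 28.2% fell. PCDH19 fell by 2.15, from 40 and 50 counts to 9 and 11 (adjusted p = 7.68e-06), a larger fall than that of any tested clustered member but PCDHGA10.

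**Figure D4:**
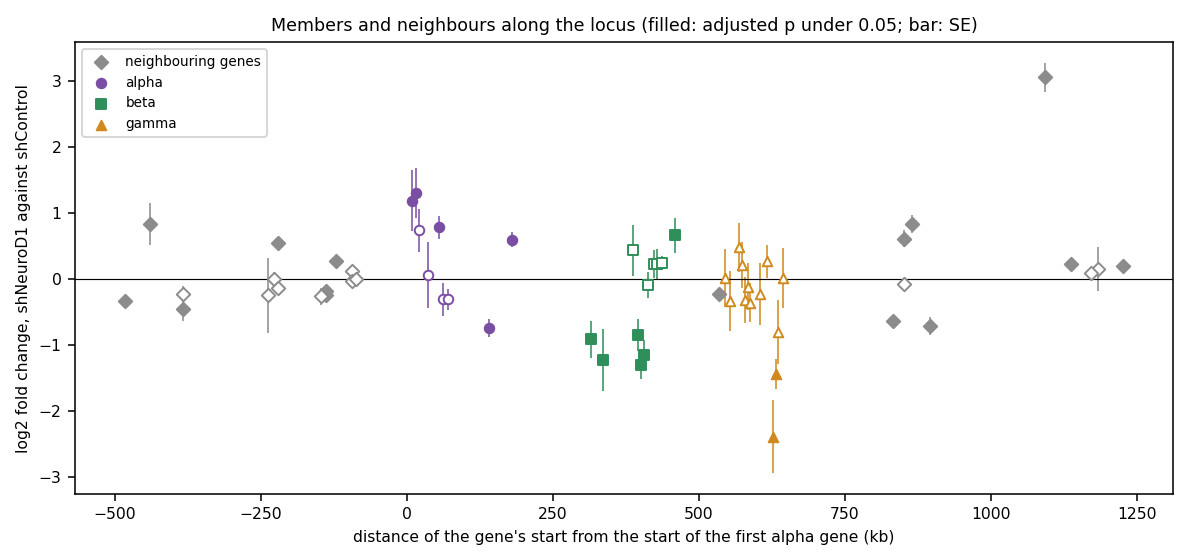
Log2 fold change (bar, SE) of tested members and neighbouring genes by distance of the gene's start from the first alpha gene. Filled points passed at an adjusted p under 0.05. PCDH1 is the neighbour on the right with the highest value, and members that fell and rose lie within the same stretch.

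Most genes listed for CTCF and cohesin or for DNA methylation and silencing fell in the same libraries. The lists were written with earlier results of these data known, and whether each gene acts at these promoters was not tested. Of 14 genes of the CTCF and cohesin machinery 10 fell, 1 rose and 3 did not pass, where 28.2% of all tested genes fell and 26.8% rose. Their median log2 fold change was -0.40, against 0.01 over all tested genes. CTCF, the zinc finger protein that binds these promoters, had 1944 and 2145 counts against 1432 and 1420 (log2 fold change -0.51, SE 0.05, adjusted p = 2.33e-10). RAD21, a subunit of the cohesin ring, fell by 0.71 (adjusted p = 5.00e-16), and ESCO2, a cohesin acetyltransferase of S phase, by 1.64 (adjusted p = 5.41e-18). Of 20 genes of DNA methylation and silencing 14 fell, 2 rose and 4 did not pass, against the same shares over all tested genes, with a median of -0.39. UHRF1, which guides maintenance methylation, fell by 1.85 (adjusted p = 1.55e-22), and HELLS, a chromatin remodeler, by 1.43 (adjusted p = 1.45e-19). Of 20 partners and signalling genes 10 fell, 5 rose and 5 did not pass, again against 28.2% and 26.8% of all tested genes. NLGN1, a synaptic adhesion protein, had 20 and 24 counts against 6 and 3 and fell by 2.25 (adjusted p = 0.000405). RET, the receptor tyrosine kinase, went from 40 and 40 counts to 186 and 187 (log2 fold change 2.23, adjusted p = 2.29e-12). Whether any of these changes bears on the protocadherin genes was not tested.

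Gene counts can be touched by overlapping annotation. Among tested members, PCDHA3, PCDHA5, PCDHA9, PCDHA10, PCDHAC2 and all beta genes but PCDHB4, PCDHB12 and PCDHB13 overlap another annotated gene in part of their exons, as PCDHGB4 and PCDHGA8 overlap each other. The use of strand in the counting is not given in the sources used here. In bulk RNA, fewer cells using a promoter and less RNA per cell cannot be told apart, and the changes are means over all cells of a library.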

How the data were processed

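PolyA RNAseq libraries of IMR-32 cells were analysed, 2 with shControl and 2 with shNeuroD1. The deposited counts per gene are raw, and per the authors they were made with HTSeq 0.6.1; their processing notes also name cutadapt 1.9.1, HISAT2 2.0.1, DESeq2 and hg38. Counting mode, use of strand and annotation release are not given in the sources used here. The authors' deposited FPKM tables list transcript starts, ends and splice events of assembled transcripts per library, with only events above 0. Positions came from GENCODE 29, which held 58394 of the 60612 gene IDs, and promoter sequences from RefSeq.

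Counts were filtered with filterByExpr (minimum count 10), scaled with TMM and tested with the edgeR 4.0.16 quasi-likelihood test (R 4.3.3) over all 17537 genes passing, two-sided, with Benjamini-Hochberg adjustment. Calls needed an adjusted p under 0.05. The SE was the log2 fold change divided by the root of the F statistic. FPKM starts with a mean of at least 1 were tested with limma 3.58.1 on log2(FPKM + 1) over 10043 genes. DESeq2 1.42.0 was an alternative. Level per length is CPM per kilobase of exon bases in no other gene. The members and lists were chosen with earlier results of these data known. Genes named were the C-type genes, the 3 most abundant of each cluster per length, members past a log2 fold change of 1, members without a count, CTCF and the 2 largest changes in each list, and TAF7, SLC25A2, PCDH1 and PCDH12. Other members were named after their values were seen. Some genes that these rules pick are not reported here. Replicates of a group differed by more than sampling noise (mean chi-square per gene 2.53 and 1.56). The script was tested on simulated data.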

Additional observations from a re-analysis of the deposited data

Results flagged for a closer look

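A transcript start in the gap between TAF7 and the gamma cluster, outside the members, was listed at 0.775 FPKM in shNeuroD1 replicate 1 and 0.582 FPKM in shNeuroD1 replicate 2 and in neither shControl library. It was picked out because it appeared in the transcript tables only under the knockdown. The start lies at chr5:141320899-141321103, and the transcript ends at chr5:141324737-141325985. A gene taken to lie there had 8 and 11 counts under shControl and 16 and 17 under shNeuroD1. That difference did not pass (log2 fold change 0.80, adjusted p = 0.143). Whether its reads came from this transcript was not tested.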

How the results depend on the processing

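Of 107 values for named members under settings other than leaving out a library, 88 kept their direction and their side of the threshold, 15 lost and 3 gained a call, and 1 reversed. That was PCDHB11, at 0.017 with library size alone. DESeq2's Wald test made 5 members lower and 2 higher, 0 of them higher beyond a log2 fold change of 1. Over all genes it made 3580 lower and 2757 higher of 32576. It kept 7 of the 13 member calls, losing PCDHA2, PCDHA3, PCDHB3, PCDHB4, PCDHB16 and PCDHB15. It left the adjusted p missing for 10 members. Without the filter on low counts 3 members were higher, 1 of them beyond 1. With a mean of at least 1 CPM required, 3 were lower beyond 1 and 1 higher beyond 1. limma on log2(FPKM + 1) and on log2(FPKM + 0.1) could test 4 members and called 0 in either direction, with 1 (PCDHA8) at an unadjusted p under 0.05, while 480 and 399 of 10043 genes passed. RAD21 reversed in them, at 0.34 and 0.42. With a library left out fewer members passed, as did fewer of all tested genes. PCDHB11 ranged from -0.33 to 0.20 in those fits and PCDHGB2 from -0.089 to 0.45. On the log2 scale the alpha sum, 0.16, was 0.27 with library size alone and -0.032 leaving out PCDHAC2. The beta sum, -0.11, was -0.35 leaving out PCDHB14, and the gamma sum, -0.40, was -0.21 leaving out PCDHGB7. Over all genes, library size alone gave 3639 lower and 6114 higher calls against 4939 and 4698. Same-numbered libraries did not deviate together (r = 0.02 across genes), and the labels tie no number to a shared culture, so no pairing was used. In the fit with a replicate block 8 members were lower and 6 higher, PCDHB14 being added at 0.25 (adjusted p = 0.0244). Over all genes that fit made 5000 lower and 4748 higher. Members with counts under about 30 a library set the limit of depth. The cause of these shifts was not tested.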

Other observations

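The 6 pseudogenes of the clusters were left out of the counts above and are given here as values only. PCDHGB9P, which lies after the gamma genes that fell, had 8 and 6 counts under shControl and 2 and 1 under shNeuroD1. PCDHGB8P, which lies between PCDHGA11 and PCDHGA12, had 4 and 11 counts against 2 and 3. PCDHB18P and PCDHB19P lie between PCDHB14 and PCDHB15. PCDHB18P had 7 and 15 counts against 24 and 14, and PCDHB19P had 19 and 22 against 16 and 31. PCDHB17P had 4 and 4 counts against 3 and 4, and PCDHA14 had no count in any library.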
